A study of Mus musculus with 11 samples.

Results

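Alcohol, aldehyde and retinol dehydrogenases of the liver were described across 3 groups of mice through 10 genes: the alcohol dehydrogenases Adh1, Adh4 and Adh5, the retinol dehydrogenase Rdh16, the plasma retinol carrier Rbp4, and the aldehyde dehydrogenases Aldh1a1, Aldh1a7, Aldh2, Aldh3a2 and Aldh1l1. Every probe set that the platform annotation assigned to one of these symbols was taken, whatever its values, which gave 13 probe sets of the 20380 that carried a single symbol, and 10 genes of 12393. All 10 genes passed a filter that left out the dimmest 40% of probe sets and kept 7771 genes. The array data came from livers of 11 male mice on a mixed background, 1 array per mouse, and bore on how the liver responds to fat feeding and to muscle growth driven by Akt1. DH mice were Akt1 double transgenic, ate the high-fat diet and were labelled positive for muscle hypertrophy (n = 4). CH mice were wild type and ate the high-fat diet (n = 4). CN mice were wild type and ate the control diet (n = 3). Every mouse, wild type included, received doxycycline for 3 weeks, and the labels name neither the promoter behind the transgene nor the age of the mice. No transgenic mice on the control diet were analysed here, so DH against CN changes genotype and diet together.

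Alcohol dehydrogenases oxidize alcohols to aldehydes in the hepatocyte cytosol, and aldehyde dehydrogenases carry the aldehyde on to an acid, for ethanol by way of acetaldehyde and mitochondrial Aldh2. The same chemistry serves vitamin A: retinol is oxidized reversibly to retinaldehyde by retinol and alcohol dehydrogenases, and retinaldehyde irreversibly to retinoic acid by the Aldh1a enzymes. The liver stores retinol and exports it bound to Rbp4.

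Values are linear signals per probe set scaled by the authors, and a signal has no meaning between different probe sets. The trimmed mean signal was 500.251 to 500.285 on each array, and median signals were 97.2 to 118. DH arrays 3 and 4 stood apart from the other 9 arrays in their brightest probe sets. Their highest signals were 42425.5 and 43272.9, against 27779.5 to 35450.1 elsewhere. They stood apart in ranks over all probe sets as well. Their mean Spearman correlations with the other arrays were 0.940 and 0.943, against 0.948 to 0.951 for the other 9. DH array 3 also had the highest Gapdh 3'/5' ratio, 0.823, against 0.669 to 0.768 on the other 10 arrays. Its poly-A spike signal averaged 126, against 310 to 525 on the others. Of 12 hepatocyte markers, 10 were tested, with signals summing to 199317 to 278531 in DH livers, 194048 to 207041 in CH livers and 168784 to 196859 in CN livers. Such a sum, here and for other markers below, only sets arrays side by side over the same probe sets. It weighs the brightest most, such as Apoa1 (mean signal 33257.4) beside Hnf4a (5168.21), and does not measure the number of cells. None of the 9 skeletal muscle markers exceeded the dim limit. That limit was set on mean log2 signal and is about 58.2 when turned back to linear signal. Atp2a1 had a linear mean of 62.1 but fell below the limit by its mean log2 signal.

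Promoter sequences are shown for pairs of neighbouring relatives whose signals are set side by side. They come from RefSeq's table for GRCm38.p6, are 300 bases long and run 5′ to 3′ across the annotated start on the gene's strand. The table held 9 of the 10 genes, with no entry for Aldh2. On chromosome 19, Aldh1a1 (chr19:20601718-20602017, plus strand, one of its annotated starts) and its rodent paralogue Aldh1a7 (chr19:20727507-20727806, minus strand) lie next to each other among protein-coding genes. Capitals mark matches on either strand to CCAAT, to TATAAA and to the octamer ATGCAAAT.
Aldh1a1: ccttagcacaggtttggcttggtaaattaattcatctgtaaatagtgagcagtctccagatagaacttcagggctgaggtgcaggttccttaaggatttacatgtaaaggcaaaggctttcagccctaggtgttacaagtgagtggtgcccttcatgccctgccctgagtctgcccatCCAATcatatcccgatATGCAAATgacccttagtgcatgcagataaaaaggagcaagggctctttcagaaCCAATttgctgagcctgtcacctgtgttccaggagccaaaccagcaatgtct
Aldh1a7: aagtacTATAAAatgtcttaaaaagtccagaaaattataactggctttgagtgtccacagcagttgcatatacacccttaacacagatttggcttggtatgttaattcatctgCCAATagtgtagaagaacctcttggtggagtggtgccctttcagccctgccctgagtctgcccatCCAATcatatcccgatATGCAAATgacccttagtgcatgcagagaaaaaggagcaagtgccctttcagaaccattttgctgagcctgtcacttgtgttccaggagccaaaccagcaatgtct
The pair aligned with 68.8% identical columns over 304 columns, and with 94.7% over the last 150 bases. Each held 2 matches to CCAAT and 1 to the octamer, and Aldh1a7 alone held TATAAA, 1 match. Of 32851 promoters of the same length in the table, 37.4% held CCAAT, 13.6% held TATAAA and 1.74% held the octamer. On chromosome 10 the RefSeq order was Rdh1, Rdh9, Rdh16, Rdh18-ps, Rdh19, Rdh16f2 and Rdh7. The promoters of Rdh16 (chr10:127800903-127801202, plus strand) and of its relative Rdh16f2 (chr10:127866226-127866525, plus strand) follow, with capitals on the longest run of bases that both hold.
Rdh16: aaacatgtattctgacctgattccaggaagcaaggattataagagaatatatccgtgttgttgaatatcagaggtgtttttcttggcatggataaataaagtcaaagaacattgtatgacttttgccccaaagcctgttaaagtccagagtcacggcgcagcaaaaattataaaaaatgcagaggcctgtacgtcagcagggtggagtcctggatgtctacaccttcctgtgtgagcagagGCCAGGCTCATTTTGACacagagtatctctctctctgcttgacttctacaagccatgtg
Rdh16f2: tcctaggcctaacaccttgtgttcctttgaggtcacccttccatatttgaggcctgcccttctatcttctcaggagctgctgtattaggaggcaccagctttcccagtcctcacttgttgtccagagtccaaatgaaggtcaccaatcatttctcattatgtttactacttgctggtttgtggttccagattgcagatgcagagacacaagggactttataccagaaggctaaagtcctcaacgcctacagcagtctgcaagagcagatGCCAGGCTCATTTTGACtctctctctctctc
That run of 17 bases occurred in 3 promoters of the table, those of Rdh9, Rdh16 and Rdh16f2. The Rdh16f2 and Rdh16 promoters aligned with 45.0% identical columns over 329 columns. These matches describe the sequence and say nothing about what binds it.

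None of the 10 genes differed between groups past the threshold, an adjusted p under 0.05 in limma, in any of the 3 comparisons. For CH against CN, 0 of 10 passed, where 0% of all 7771 genes did, and 1 of 10 had an unadjusted p under 0.05, where 7.09% of all genes did. For DH against CH, 0 of 10 passed, against 0.36% of all genes (0.219% higher and 0.142% lower). The unadjusted count was again 1 of 10, against 13.8% of all genes. For DH against CN, 0 of 10 passed, against 2.11% of all genes (1.42% higher and 0.695% lower), and 1 of 10 had an unadjusted p under 0.05, against 18.5%. The median log2 difference over the 10 genes was 0.11 for CH against CN, -0.070 for DH against CH and 0.046 for DH against CN. The matching medians over all genes were 0.0070, -0.00064 and 0.0031. In whole liver, fewer cells of a type and less RNA per cell cannot be told apart. A p that misses the threshold does not show equal levels, so the interval of each difference is given where a gene is described.

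**Figure D1:**
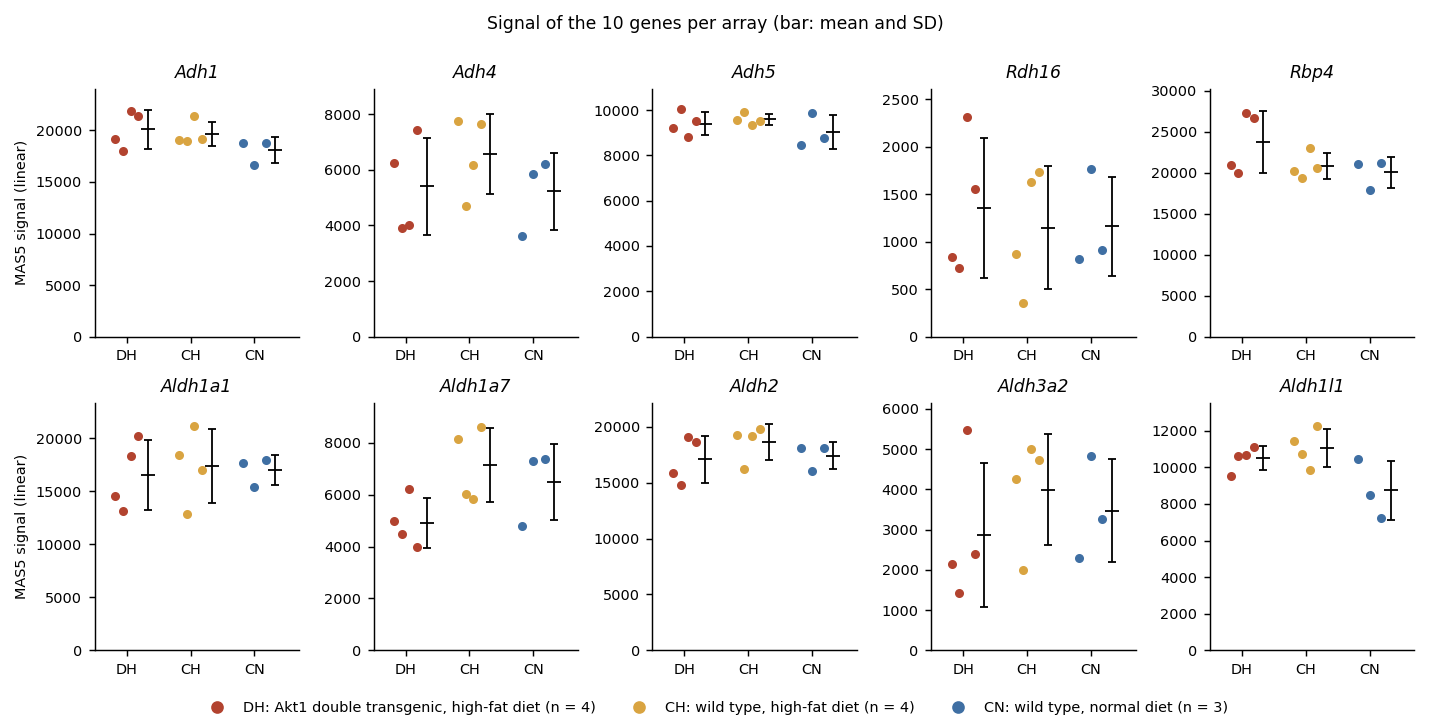
MAS5 signal (linear axis from 0) of the 10 genes on each array, by group; each point is 1 liver and the bar is the mean and SD (DH and CH n = 4, CN n = 3). The groups overlap for every gene in every pair of groups, apart from Adh1 in CH against CN livers, while Rdh16 and Aldh3a2 spread several-fold within a group and Adh5 hardly at all.

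**Figure D2:**
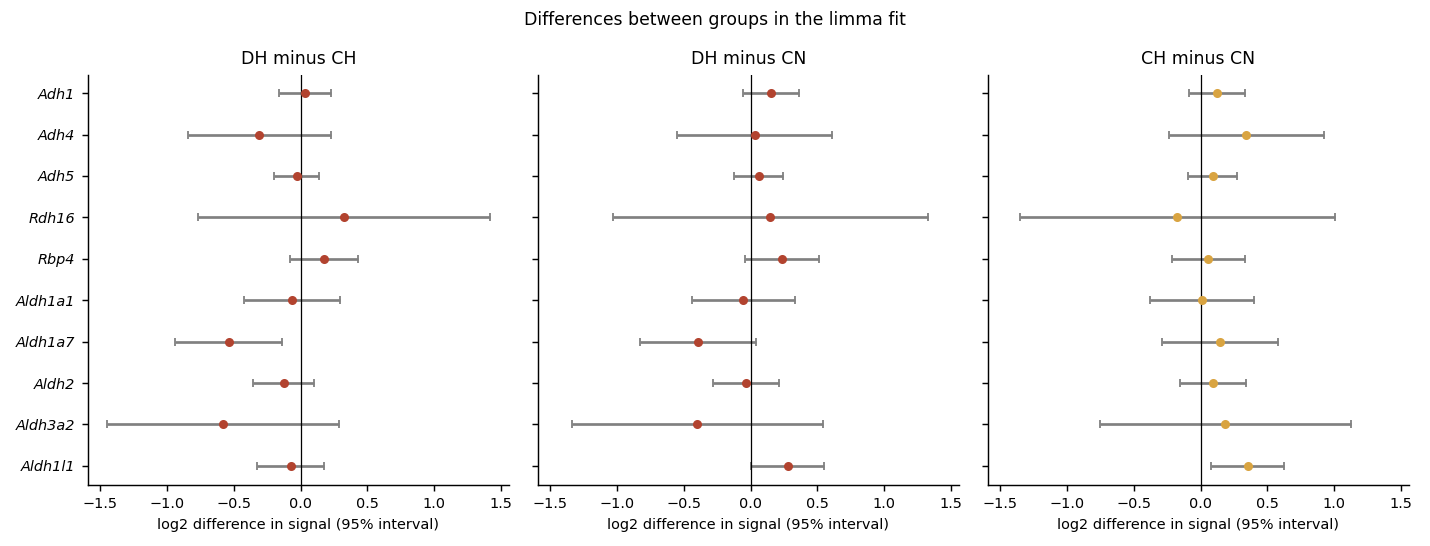
Log2 difference in signal for each gene in each comparison, with limma's 95% interval, DH minus CH at left, DH minus CN in the middle and CH minus CN at right. Intervals run from under 0.2 to either side for Adh5 to more than 1 for Rdh16, and no difference passed the adjusted threshold.

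Adh1, the main ethanol-oxidizing enzyme of the liver and a retinol oxidizer as well, had signals of 19149.0, 17969.0, 21907.9 and 21403.1 in DH livers, 19030.9, 18928.9, 21430.8 and 19181.4 in CH livers, and 18815.6, 16656.8 and 18791.8 in CN livers. All 4 CH livers lay above all 3 CN livers, the lowest CH liver only just above the highest CN liver, while DH livers overlapped both. Arrays of CH and CN failed to overlap with CH higher for 4.61% of all genes. The CH minus CN difference was 0.12 ± 0.096 on the log2 scale (limma's SE; 95% interval -0.091 to 0.33), with adjusted p = 0.863. After quantile normalization that difference was 0.072 and CH and CN livers overlapped. On that scale CH array 1, at 14.226, lay below CN array 2, at 14.230. DH minus CH was 0.031 ± 0.089, and its sign turned, to -0.086 after quantile normalization and to -0.081 without DH arrays 3 and 4.

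Adh5 encodes the class III alcohol dehydrogenase, which clears formaldehyde bound to glutathione and reduces S-nitrosoglutathione. Its signals were 9215.2, 10028.1, 8827.2 and 9509.1 in DH livers, 9559.7, 9931.1, 9332.8 and 9522.1 in CH livers, and 8449.9, 9861.3 and 8746.7 in CN livers. The highest of the 11 was 1.19 times the lowest, and the groups overlapped throughout. The DH minus CH difference was -0.030 ± 0.078 (interval -0.20 to 0.14; adjusted p = 0.897), and the CH minus CN difference was 0.091 ± 0.085 (interval -0.094 to 0.28; adjusted p = 0.891). The residual SD within groups was 0.0787 on the log2 scale, smaller than that of all but 1.49% of the genes tested. Among the 10 genes its intervals were the narrowest.

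Adh4, the class II enzyme, which prefers longer alcohols and also oxidizes retinol, had signals of 6259.6, 3896.0, 4028.5 and 7455.1 in DH livers, 7778.5, 4692.9, 6184.5 and 7662.8 in CH livers, and 3629.5, 5850.5 and 6209.2 in CN livers. Low and high livers occurred in each group. DH minus CH was -0.31 ± 0.25 (interval -0.85 to 0.23; adjusted p = 0.614; -0.48 to -0.17 with each array left out), and the CH minus CN difference was 0.34 ± 0.27 (interval -0.24 to 0.92; adjusted p = 0.855; 0.098 without CN array 1). RefSeq places Adh1, Adh4 and Adh5 in one cluster on chromosome 3, yet their residual SDs ran from 0.0787 for Adh5 and 0.110 for Adh1 to 0.412 for Adh4.

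Rdh16, a short-chain dehydrogenase that oxidizes retinol, was the most variable of the 10 genes by residual SD. Its signals were 838.8, 719.4, 2318.0 and 1551.2 in DH livers, 875.0, 358.0, 1628.7 and 1729.8 in CH livers, and 813.2, 1764.8 and 917.0 in CN livers. The highest signal was 6.47 times the lowest, and both low and high livers occurred in every group. The residual SD was 0.860 on the log2 scale, larger than in 97.6% of the genes tested. The DH minus CH difference of 0.32 ± 0.50 had an interval of -0.77 to 1.42 (adjusted p = 0.817), which as a ratio runs from 0.588 to 2.67. Without DH arrays 3 and 4 it was -0.32.

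Rdh16f2, which lies beyond Rdh18-ps and Rdh19 in the gene order above and was on the list of other alcohol and retinol dehydrogenases, rose in DH livers in both comparisons. Its signals were 3783.5, 2509.4, 3916.9 and 3232.7 in DH livers, 1148.1, 1780.4, 1356.9 and 799.4 in CH livers, and 1010.4, 1137.1 and 1314.1 in CN livers. All 4 DH livers lay above all 7 wild-type livers, and arrays failed to overlap with DH higher for 4.29% of all genes against CH and 8.44% against CN. The signal was 2.71-fold higher in DH than in CH livers (95% interval 1.95 to 3.77; log2 difference 1.44 ± 0.22, adjusted p = 0.0351) and 2.89-fold higher in DH than in CN livers (interval 2.02 to 4.12; log2 difference 1.53 ± 0.24, adjusted p = 0.0104). The CH minus CN difference was 0.089 ± 0.24, adjusted p = 0.963. The DH against CH call was lost without DH array 3 (adjusted p = 0.0798), DH array 4 (0.0944), CH array 1 (0.120) or CH array 3 (0.0800), while the difference stayed between 1.24 and 1.62 with each array left out in turn. It was also lost without the intensity trend (0.0736), with only the compared groups in the fit (0.0628) and without DH arrays 3 and 4 together (1.34, adjusted p = 0.258), a removal that also ended the DH against CN call (adjusted p = 0.0956).

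Rdh9 and Rdh7, the other genes of that stretch in the fit, were picked for description after their values were seen. Rdh9 had signals of 3638.0, 4455.3, 8458.7 and 6654.6 in DH livers, 4064.5, 1801.7, 5119.2 and 7816.0 in CH livers, and 3363.8, 3604.6 and 2642.4 in CN livers. DH and CH livers overlapped, and all DH livers lay above all CN livers, a pattern seen in 8.44% of all genes. Its DH minus CH difference was 0.41 ± 0.38 (adjusted p = 0.675) and its DH minus CN difference 0.79 ± 0.41 (adjusted p = 0.330). DH minus CH was 0.0099 without CH array 2, 0.20 without DH array 3 and 0.72 without CH array 4, and without DH arrays 3 and 4 the differences were -0.039 against CH and 0.34 against CN. Rdh7 ranged from 13663.3 to 15774.8 in DH livers, 14446.8 to 15419.4 in CH livers and 14341.9 to 15673.7 in CN livers, and its DH minus CH difference was -0.046 ± 0.075 (interval -0.21 to 0.12). The family is closely related in sequence, and whether the probes of one member also bind another's RNA was not tested. The Rdh9 probe set carries the suffix that the manufacturer uses for probes shared between transcripts.

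**Figure D3:**
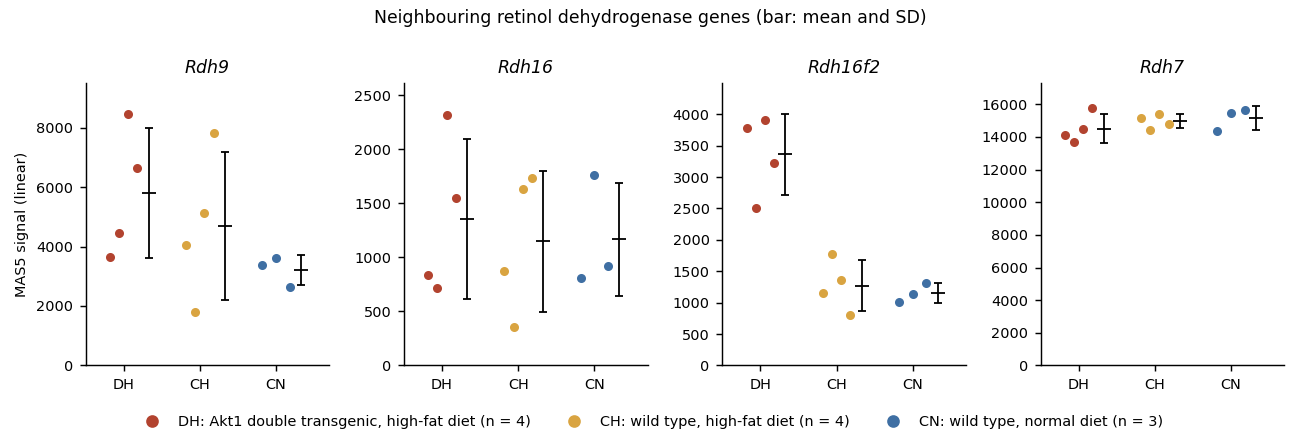
MAS5 signal (linear axis from 0) of Rdh9, Rdh16, Rdh16f2 and Rdh7, in their order on chromosome 10, by group; points are livers and bars are mean and SD (DH and CH n = 4, CN n = 3). For Rdh16f2 the 4 DH livers, at 2509.4 to 3916.9, sit above the CH and CN livers, at 799.4 to 1780.4, and for Rdh16 and Rdh7 the groups overlap.

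Rbp4, which carries retinol from the liver in plasma, had signals of 20970.3, 19984.1, 27259.2 and 26653.2 in DH livers, 20240.3, 19348.6, 23039.6 and 20607.7 in CH livers, and 21082.9, 17875.0 and 21128.7 in CN livers. The 2 highest values were on DH arrays 3 and 4, the arrays with the highest top signals, and DH arrays 1 and 2 lay among the wild-type livers. The DH minus CH difference was 0.18 ± 0.12 (interval -0.076 to 0.43; adjusted p = 0.526) and was -0.021 without those 2 arrays. The DH minus CN difference was 0.23 ± 0.13 (interval -0.040 to 0.51; adjusted p = 0.348), and 0.036 without those arrays. After quantile normalization the difference was 0.022 against CH and 0.040 against CN. CH minus CN was 0.056 ± 0.13 (adjusted p = 0.951).

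Aldh1a1, the cytosolic enzyme that makes retinoic acid from retinaldehyde, had signals of 14543.4, 13173.0, 18361.4 and 20265.0 in DH livers, 18393.8, 12851.6, 21207.4 and 17057.4 in CH livers, and 17701.9, 15400.0 and 17921.1 in CN livers. The group means were close to each other, and the spread within DH and CH livers was wider than any gap between groups. The DH minus CH difference was -0.066 ± 0.16 (interval -0.42 to 0.29; adjusted p = 0.895), but -0.31 without DH arrays 3 and 4 and -0.17 after quantile normalization (adjusted p = 0.560 and 0.557). The CH minus CN difference was 0.011 ± 0.18 (interval -0.38 to 0.40; adjusted p = 0.990).

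Its neighbour Aldh1a7 had signals of 4991.1, 4473.7, 6204.7 and 3981.0 in DH livers, 8127.1, 6012.8, 5835.4 and 8593.2 in CH livers, and 4804.4, 7280.9 and 7351.7 in CN livers. DH arrays 1, 2 and 4 lay below every CH liver, but DH array 3, at 6204.7, overlapped them. This was the 1 gene of the 10 with an unadjusted p under 0.05 in DH against CH: the log2 difference was -0.54 ± 0.18 (interval -0.94 to -0.14), with adjusted p = 0.225. It stayed between -0.66 and -0.44 with each array left out in turn, with adjusted p between 0.176 and 0.440. The DH minus CN difference was -0.39 ± 0.20 (interval -0.83 to 0.042; adjusted p = 0.318). The promoters of this pair share most of their proximal bases, as printed above, while Aldh1a1 and Aldh1a7 gave DH minus CH differences of -0.066 and -0.54; whether the 2 differences differ from each other was not tested.

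Aldh3a2, the microsomal fatty aldehyde dehydrogenase, had signals of 2143.8, 1418.9, 5474.8 and 2400.2 in DH livers, 4248.8, 1987.6, 5014.9 and 4725.5 in CH livers, and 2306.9, 4842.6 and 3258.8 in CN livers. DH array 3 held both the highest value of the group and the highest of all 11 livers, while DH array 2 held the lowest of all. The DH minus CH difference was -0.58 ± 0.40 (interval -1.45 to 0.29; adjusted p = 0.555), and the residual SD of 0.683 was second to that of Rdh16 among the 10 genes. The difference was -1.11 without DH arrays 3 and 4 (adjusted p = 0.386), -0.96 without DH array 3 alone and -0.31 without DH array 2.

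Aldh2, the mitochondrial enzyme that clears acetaldehyde, was read by 3 probe sets that gave different results. The brightest, 1448143_at, had signals of 15893.9, 14741.6, 19081.1 and 18614.9 in DH livers, 19281.1, 16222.3, 19128.8 and 19777.0 in CH livers, and 18134.6, 16049.5 and 18077.0 in CN livers. The groups overlapped, and the differences were -0.13 ± 0.10 for DH minus CH (interval -0.35 to 0.10; adjusted p = 0.628) and -0.034 ± 0.11 for DH minus CN (interval -0.28 to 0.21; adjusted p = 0.902). DH minus CH was -0.24 after quantile normalization (adjusted p = 0.132) and -0.28 without DH arrays 3 and 4 (adjusted p = 0.414), and DH minus CN was -0.18 in both.

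The dimmer probe set 1434988_x_at had signals of 408.2, 284.9, 217.6 and 237.3 in DH livers, 483.4, 468.1, 877.1 and 570.5 in CH livers, and 572.0, 546.2 and 681.7 in CN livers. All 4 DH livers lay below all 7 wild-type livers. Arrays failed to overlap with DH lower for 2.63% of all probe sets against CH and 4.75% against CN. In a fit over all 20380 single-symbol probe sets with no filter, it fell by 1.10 on the log2 scale in DH against CN (SE 0.24, adjusted p = 0.0476), the 1 call among the 13 probe sets in a comparison where 0.986% of all probe sets passed and 0.334% passed as lower. In DH against CH the difference was -1.06 ± 0.22 (adjusted p = 0.0839), and 0 of 13 probe sets passed, against 0.108% of all probe sets. The suffix of this probe set marks probes that the manufacturer found to match other transcripts as well. The third probe set, 1434987_at, had signals of 293.3, 275.7, 346.8 and 299.0 in DH livers, 337.6, 234.2, 386.8 and 366.4 in CH livers, and 323.1, 491.7 and 401.0 in CN livers. Its groups overlapped, with a DH minus CN difference of -0.40 ± 0.19 (adjusted p = 0.387). In CH against CN, 0 of 13 and 0% of all probe sets passed. The call on 1434988_x_at was lost in 14 of 18 alternative fits, among them quantile normalization (adjusted p = 0.0513) and leaving out any one array other than DH array 1, CH array 2 or CH array 3, and was not shared by the other 2 probe sets of the gene. Against CH it passed without DH array 1 (adjusted p = 0.0315).

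Aldh1l1, the folate enzyme that oxidizes 10-formyltetrahydrofolate, was the 1 gene of the 10 with an unadjusted p under 0.05 in CH against CN and in DH against CN. Its brighter probe set, 1424400_a_at, had signals of 9548.7, 10646.0, 10679.6 and 11087.5 in DH livers, 11415.0, 10727.1, 9842.0 and 12261.5 in CH livers, and 10476.2, 8497.2 and 7252.7 in CN livers. Livers from both high-fat groups overlapped the highest CN liver and lay above the other two. The signal was 1.28-fold higher in CH than in CN livers (log2 difference 0.35 ± 0.12, interval 0.080 to 0.62, adjusted p = 0.650), and the DH minus CN difference was 0.28 ± 0.12 (interval 0.0062 to 0.55, adjusted p = 0.261). Both moved with single CN livers: without CN array 1 they were 0.49 for CH and 0.42 for DH, and without CN array 3 they were 0.22 and 0.15. The second probe set, 1424401_at, was dim, with signals of 216.3, 266.4, 119.2 and 168.9 in DH livers, 177.0, 242.0, 190.0 and 279.1 in CH livers, and 185.5, 138.4 and 53.4 in CN livers. It had the same sign in CH against CN, 0.97 ± 0.38, with adjusted p = 0.795. These 2 comparisons share the CN arrays. No other gene of the 10 reached an unadjusted p under 0.05 in either comparison.

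**Figure D4:**
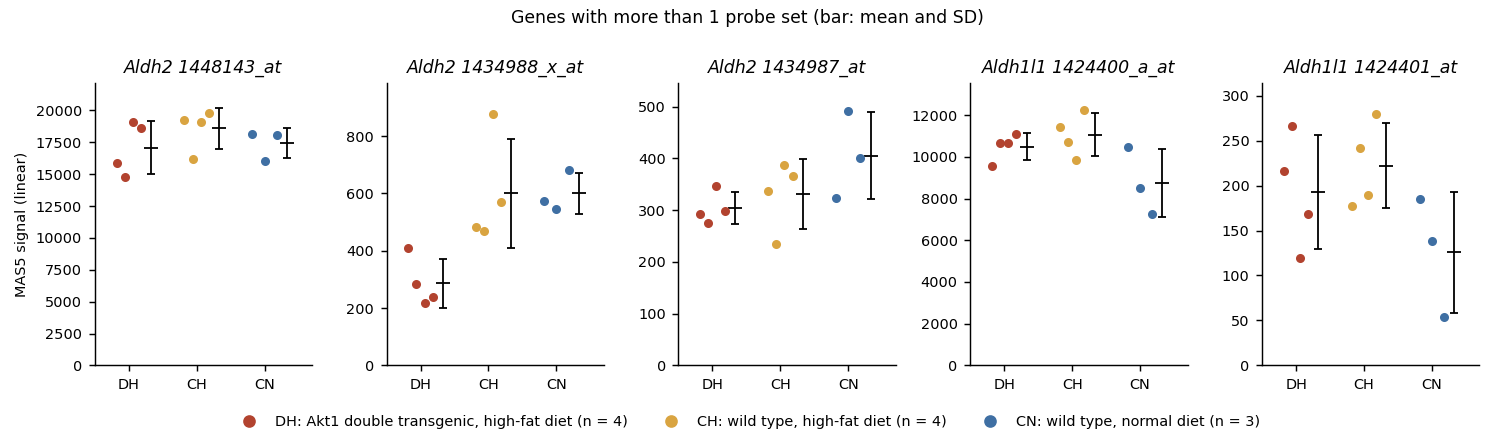
MAS5 signal (linear axes from 0, a scale per panel) for the 3 probe sets of Aldh2 and the 2 of Aldh1l1, by group; points are livers and bars are mean and SD (DH and CH n = 4, CN n = 3). In the panel for 1434988_x_at the 4 DH livers, at 217.6 to 408.2, sit below the CH and CN livers, at 468.1 to 877.1, while the groups overlap in the other 4 panels.

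Spread within groups differed widely among the 10 genes. Residual SD within groups had a median of 0.241 on the log2 scale over all genes tested, and of 0.158 over the 778 genes of highest mean signal, which included 9 of the 10 genes. Adh5, Adh1 and Aldh2 (0.0787, 0.110 and 0.145) were below that second median. Aldh1l1 (0.167) and Rbp4 (0.171) were close to it, Aldh1a1, Aldh1a7 and Adh4 (0.264, 0.300 and 0.412) were above it, and Aldh3a2 and Rdh16 (0.683 and 0.860) were furthest from it.

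Of 45 pairs among the 10 genes, 34 had a positive Pearson correlation over the 11 arrays. Rdh16 and Aldh3a2, the pair with the widest spreads, moved together from liver to liver. Their Pearson r was 0.746 (permutation p = 0.0082, adjusted over the 45 pairs 0.123) and Spearman rho 0.918 (permutation p = 0.00016, adjusted 0.0072). With the 2 livers farthest from the median of Rdh16 left out, r was 0.70, and without DH arrays 3 and 4 it was 0.786. Centred within each group, r was 0.906 (exact permutation within groups, p = 0.000579, adjusted 0.0130), and it was 0.911 within groups after quantile normalization. In CH livers both genes were lowest on array 2, and in CN livers both were highest on array 2.

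Adh1 and Rbp4 gave the highest Pearson r of the 45 pairs, 0.920 (permutation p = 0.00013, adjusted 0.00585), with rho 0.727 (permutation p = 0.0144, adjusted 0.162). Its r was 0.854 with the 2 livers farthest from the median of Adh1 left out, 0.903 without DH arrays 3 and 4, and 0.976 within groups (exact permutation p = 0.000579, adjusted 0.0130). After quantile normalization, which gives every array the same distribution, r was 0.112 over all arrays and 0.275 within groups. Both genes are among the brightest on each array, where the arrays differed in range as described above. Aldh1a1 and Aldh2 had r = 0.850 (permutation p = 0.00101, adjusted 0.0227) and rho 0.70 (permutation p = 0.0198, adjusted 0.178). Without the 2 livers farthest in Aldh1a1 it was 0.760, within groups 0.891 (exact permutation p = 0.00810, adjusted 0.0859), and after quantile normalization 0.626. Aldh1a1 and Rbp4 had r = 0.638 (permutation p = 0.0328, adjusted 0.185) and rho 0.727 (permutation p = 0.0142, adjusted 0.162), with r = 0.620 without the 2 livers farthest in Aldh1a1. Within groups their r was 0.863 (exact permutation p = 0.00260, adjusted 0.0391), one of 3 pairs that passed there, and 0.760 after quantile normalization.

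**Figure D5:**
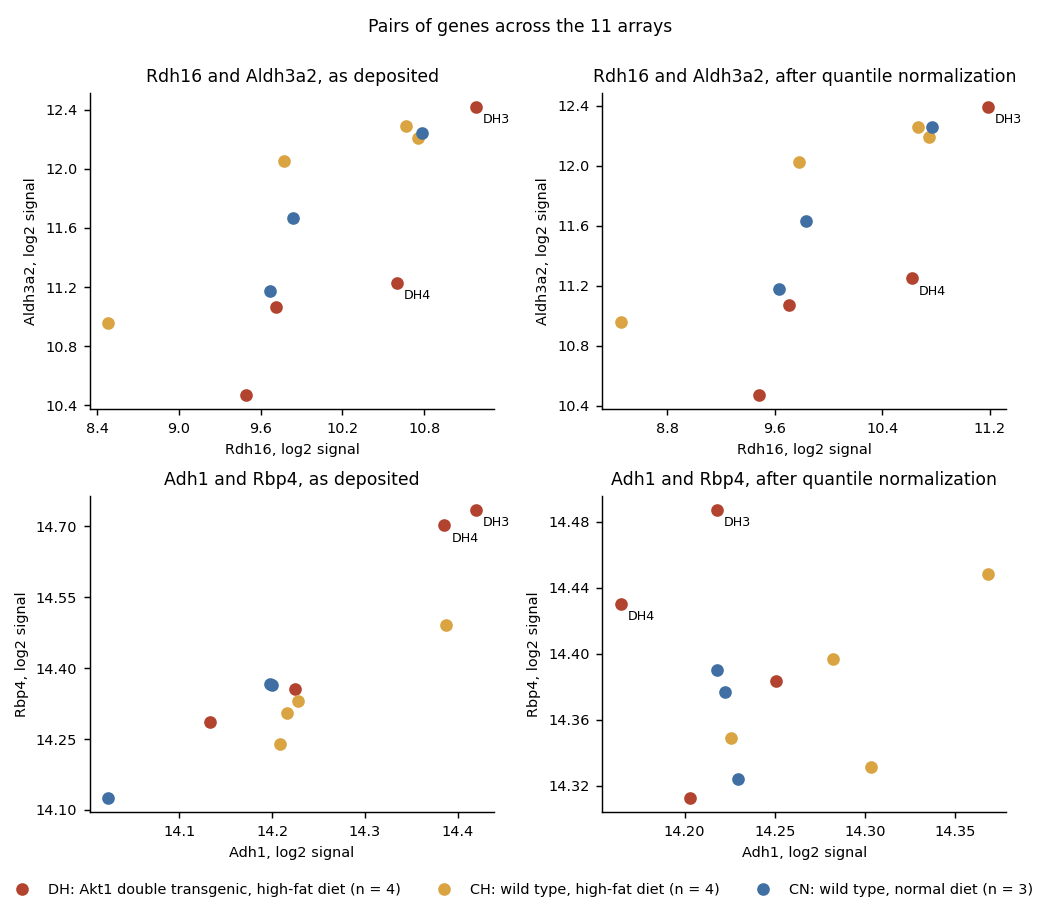
Log2 signal of Rdh16 against Aldh3a2 (top) and Adh1 against Rbp4 (bottom) over the 11 livers, as deposited at left and after quantile normalization at right; colours are groups and DH arrays 3 and 4 are named. The rising pattern of Rdh16 with Aldh3a2 is present on both scales (r 0.746 and 0.750), and that of Adh1 with Rbp4 is present as deposited (0.920) and not after quantile normalization (0.112).

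The genes most like 3 of the 10 across the 11 arrays were picked by Pearson r on log2 signal over 7771 genes. For Adh1 they were Apoh (0.962), Apoc1 (0.959) and Itm2b (0.959), for Rbp4 Fabp1 (0.982), Apoa2 (0.978) and F2 (0.974), and for Aldh1a1 Crb3 (0.923), Pon1 (0.905) and Cdo1 (0.904). After quantile normalization the r of Adh1 was 0.685, 0.473 and 0.722 with the same genes in that order, that of Rbp4 was -0.216, 0.747 and 0.499, and that of Aldh1a1 was 0.796, 0.728 and 0.913. These are descriptions over 11 arrays that share their scaling, and carry no test.

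Other genes of the pathway were read from lists. Among other alcohol and retinol dehydrogenases, 19 of 28 were tested, and 1 rose in DH against CH (Rdh16f2) and 2 in DH against CN (Rdh16f2 and Adhfe1). Of all genes, 0.219% passed as higher in DH against CH and 1.42% in DH against CN. Adhfe1, a mitochondrial hydroxyacid-oxoacid transhydrogenase, had signals of 3807.9, 3613.7, 3260.9 and 3597.7 in DH livers, 3918.6, 3606.6, 3001.4 and 3182.3 in CH livers, and 2473.6, 2619.0 and 2694.8 in CN livers. Livers of both high-fat groups lay above all CN livers. That pattern was seen in 8.44% of all genes for DH against CN and 4.61% for CH against CN. The Adhfe1 probe set, like that of Rdh9, carries the suffix that the manufacturer uses for probes shared between transcripts. The DH minus CN difference was 0.46 ± 0.11 (adjusted p = 0.0480), and the CH minus CN difference was 0.39 ± 0.11 (adjusted p = 0.489). The call was lost in 17 of 20 alternatives, including each of the 11 that left out an array (adjusted p = 0.0504 to 0.131), while the difference stayed between 0.42 and 0.52 over the 20.

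Among other aldehyde-oxidizing enzymes, 10 of 18 were tested, and 1 fell in DH against CN, where 0.695% of all genes passed as lower. This was Aox1, the cytosolic aldehyde oxidase, which can also act on retinaldehyde. Its signals were 837.9, 589.8, 578.8 and 865.3 in DH livers, 1253.7, 914.7, 1264.6 and 1525.3 in CH livers, and 1408.4, 1256.3 and 1846.4 in CN livers. All 4 DH livers lay below all 7 wild-type livers, and arrays failed to overlap with DH lower for 4.14% of all genes against CH and 7.23% against CN. The signal was 2.10-fold lower in DH than in CN livers (log2 difference -1.07 ± 0.21, adjusted p = 0.0239), and the DH minus CH difference was -0.79 ± 0.19 (adjusted p = 0.101). The DH against CN call was lost without CN array 1, 2 or 3 (adjusted p = 0.0575, 0.0503 and 0.0921), without DH array 2 or 3 (0.0532 and 0.0536) and without DH arrays 3 and 4 together (0.106). Against CH it passed without CH array 2 (0.0462).

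Of 29 genes of retinoid transport, storage, breakdown and reception, 15 were tested and 0 passed in limma in any comparison. At an unadjusted p under 0.05 there were 0 for CH against CN, 2 for DH against CH and 4 for DH against CN, beside 7.09%, 13.8% and 18.5% of all genes. Log2 differences over the 15 ran from -1.47 to 0.74 for CH against CN and from -1.01 to 1.00 for DH against CH. For DH against CN they ran from -2.48 to 0.97. The pair of smallest p in DH against CH, which are not the genes of largest difference in every comparison, were the carotenoid-cleaving enzymes. Bco1, which splits beta-carotene into retinaldehyde, had signals of 188.9, 296.9, 385.8 and 211.1 in DH livers, 128.6, 149.0, 96.7 and 155.3 in CH livers, and 134.9, 145.8 and 154.2 in CN livers. Every DH liver lay above every wild-type liver, a pattern seen in 4.29% of all genes against CH and 8.44% against CN. DH minus CH was 1.00 ± 0.23 (adjusted p = 0.0955). Bco2, which cleaves carotenoids off centre, differed by -0.44 ± 0.16 in DH minus CH (adjusted p = 0.236), with 239.1 to 290.1 in DH livers, 276.8 to 430.1 in CH livers and 313.6 to 433.3 in CN livers.

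Of 23 folate one-carbon genes, the pathway of Aldh1l1, 14 were tested and 1 rose in DH against CN, where 1.42% of all genes did. This was Folr2, a folate receptor that macrophages carry, with signals of 191.1, 331.5, 109.5 and 159.4 in DH livers, 127.4, 134.2, 137.2 and 89.4 in CH livers, and 79.2, 45.1 and 70.7 in CN livers. DH and CH livers overlapped, and both lay above all CN livers. Of all genes, 8.44% lay so for DH against CN and 4.61% for CH against CN. The DH minus CN difference was 1.53 ± 0.34 (adjusted p = 0.0441). DH minus CH ran from 0.31 to 0.84 with each array left out in turn (limma, adjusted p = 0.302 to 0.657). The call was lost in 14 of 19 alternatives, including the removal of any one array other than CH array 2 or DH array 3. Kupffer cell and macrophage markers were read in the same comparisons. In DH against CN, 10 of 10 tested were above 0, with a median log2 difference of 1.11, beside 0.0031 over all genes. Of these, 9 had an unadjusted p under 0.05, where 18.5% of all genes did. The adjusted threshold was passed by 1 (Cd5l, 2.02 ± 0.46, adjusted p = 0.0450), where 1.42% of all genes passed as higher. In CH against CN, 10 of 10 were also above 0, with a median of 0.59. There 2 had an unadjusted p under 0.05, where 7.09% of all genes did, and 0 passed. In DH against CH, 8 of 10 were above 0, with a median of 0.55. There 0 had an unadjusted p under 0.05, where 13.8% of all genes did. Their summed signal was 5491.1 to 15406.6 in DH livers, 4425.7 to 9905.0 in CH livers and 3216.3 to 6100.2 in CN livers. Their part in the Folr2 result was not tested.

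Markers of other cell types were read beside the 10 genes. In DH against CN, 9 of 10 hepatocyte markers were above 0 with 0 passing and 5 at an unadjusted p under 0.05, where 18.5% of all genes were. Their median log2 difference was 0.31, beside 0.0031 over all genes. Some of these markers, such as Alb and Apoa1 (mean signals 23833.1 and 33257.4), lie in the brightest range, where DH arrays 3 and 4 stood apart. Others, such as Hnf4a (5168.21), were dimmer. The part of those 2 arrays in these counts was not tested. For stellate cells, which store retinol, 8 of 13 markers were tested and their summed signal was 5255.6 to 6170.0 in DH livers, 5319.4 to 9252.8 in CH livers and 5547.1 to 5686.6 in CN livers. For endothelial cells, 12 of 12 were tested, with sums of 5877.9 to 8126.1 in DH livers, 5171.1 to 6267.7 in CH livers and 5642.3 to 7282.3 in CN livers. Of the stellate and endothelial markers, 0 passed in any comparison in limma, with 0 in either list at an unadjusted p under 0.05 for DH against CN, 1 stellate and 4 endothelial for DH against CH, and 2 of each for CH against CN. The shares of all genes were 18.5%, 13.8% and 7.09% in these comparisons. In CH against CN the 2 stellate markers were higher and the 2 endothelial markers lower. For DH against CH the stellate marker was lower, while 3 endothelial markers were higher and 1 lower. Of 12 endothelial markers, 1 was above 0 in CH against CN (median log2 difference -0.18). In DH against CH 11 were (0.22), and in DH against CN 7 (0.033). Of 8 stellate markers, 6 (0.32), 2 (-0.26) and 5 (0.054) were above 0 in the same order. One bile duct marker (Krt23) and 1 blood cell marker (Alas2) exceeded the dim limit. The part of these cell types in the values of the 10 genes was not tested.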

How the data were processed

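Biotin-labelled cRNA was made from liver RNA by way of poly-dT primed cDNA, per the labels' protocols. The deposited values are linear intensity values (signal) that the authors made with MAS5, per the submitters' processing notes; no version and no genome build is given in the sources used here. MAS5 treats arrays one by one and scales each, so the shape of the brightest range can differ between arrays. Without detection calls, signal over background was not judged; the number of arrays limits the precision.

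Values under a signal of 1 (1386 of them) were set to 1 before log2. Of 22690 probe sets, those with 1 symbol in the platform annotation were kept (20380), the dimmest 40% by mean log2 signal were left out, and the brightest probe set stood for each gene (7771). The test was a moderated fit in limma 3.58.1 (R 4.3.3; lmFit, then eBayes with trend; all 11 arrays, two-sided, Benjamini-Hochberg adjusted p under 0.05), and SEs are limma's. A second fit took all 20380 probe sets. Correlations used 100000 permutations over arrays, or all 3456 orderings within groups. The code was tested on simulated data. The genes, lists and tests were chosen with earlier results of these data known. Named genes were all 10, from each list those past the threshold in a comparison or else the 2 of smallest p in DH against CH, and the 3 genes most like Adh1, Aldh1a1 and Rbp4. Groups came from sample titles. Deviations of same-numbered arrays correlated at 0.0824, 0.300, 0.135 and 0.137 between DH and CH, at -0.0733 to 0.0241 between CH and CN and at -0.0566 to 0.117 between DH and CN. As not every pair exceeded 0.1, the numbers were not used as a block. Alternatives were quantile normalization, log2(signal + 32), other dim filters, every probe set as a feature, no trend, only the groups compared, the replicate block, each array left out in turn, and, added after the data were seen, the same for single probe sets and list genes.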

Additional observations from a re-analysis of the deposited data

Results flagged for a closer look

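Adh1 on CH array 3 had a signal of 21430.8, far from the other 3 CH livers, which lay between 18928.9 and 19181.4. On the log2 scale, used for this screen, the gap was 0.893 of the group's range, and on the linear signals it was 0.899. For the bright Aldh2 probe set, CH array 2 had 16222.3 and lay below the other 3 CH livers, at 19128.8 to 19777.0. The gap was 0.832 of the range on the log2 scale, just past the critical value for 4 samples, and 0.818 on the linear signals, which falls short of it. These were 2 of 26 groups examined over the 13 probe sets, and chance alone gives about 1 in 20.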

How the results depend on the processing

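None of the 10 genes passed the threshold under any of the alternatives run, in any comparison. The count of all genes called moved more. For CH against CN it was 0 (551 at an unadjusted p under 0.05), 2 with the replicate block, 2 without DH arrays 3 and 4, and 0 to 2 with each array left out. For DH against CH it was 28, with 12 without a dim filter, 0 without the intensity trend, 6 with only the compared groups, 4 without DH arrays 3 and 4, and 0 to 65 with each array left out. For DH against CN it was 164, with 82 without the trend, 25 without DH arrays 3 and 4, and 36 to 200 with each array left out. The call on 1 of 13 probe sets in DH against CN was 0 under quantile normalization, log2(signal + 32), no trend, only the compared groups, the replicate block and without DH arrays 3 and 4, and 0 to 1 with each array left out; in DH against CH it was 0 to 1, the 1 arising without DH array 1. The causes were not tested. Folr2 was not among the genes kept by the 60% dim filter.

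Of the 30 gene differences, 16 changed sign in some alternative, none of them past the threshold. Under quantile normalization these were Aldh1a1 CH minus CN (-0.037), Adh1 DH minus CH (-0.086) and DH minus CN (-0.014), and Adh5 DH minus CN (-0.019). Under the replicate block they were Aldh1a1 CH minus CN (-0.040), Adh4 DH minus CN (-0.096) and Rdh16 DH minus CN (-0.051), and the Aldh2 probe set 1434988_x_at CH minus CN (0.00045). Without DH arrays 3 and 4 they were, in DH minus CH, Adh1 (-0.081), Adh5 (0.0044), Rdh16 (-0.32), Rbp4 (-0.021) and Rdh9 (-0.039), and in DH minus CN, Adh4 (-0.044) and Rdh16 (-0.50). With each array left out in turn, signs varied for CH minus CN in Rdh16 (-0.46 to 0.30), Aldh1a1 (-0.092 to 0.15), Aldh1a7 (-0.056 to 0.25), Aldh3a2 (-0.079 to 0.49), Rbp4 (-0.023 to 0.097), Bco2 (-0.25 to 0.013), Rdh16f2 (-0.093 to 0.29), Rdh7 (-0.058 to 0.0056) and 1434988_x_at (-0.24 to 0.061). They varied for DH minus CH in Rdh16 (-0.15 to 0.60), Aldh1a1 (-0.20 to 0.038) and Adh1 (-0.012 to 0.083), and for DH minus CN in Rdh16 (-0.16 to 0.49), Aldh1a1 (-0.16 to 0.049), Adh4 (-0.21 to 0.17) and Aldh2 (-0.092 to 0.034). Every DH array correlated best with the CH array of its own number (4 of 4), a hint from the data and not from the design.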
